A study of Homo sapiens with 6 samples.

Results

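The genes described here are the protein-coding olfactory receptor (OR) genes of chromosome 11, chosen by symbol (OR, a family number, subfamily letters and a member number) after the counted transcripts had been matched to GENCODE genes by transcript ID. Of 171 such genes in the annotation, 118 had a matched transcript, among 37339 matched transcription units (TUs, the counted stretch of a gene) and 19032 protein-coding ones, and the other 53 were not analysed here. Of the 118 genes, 39 were class I receptors (families OR51 to OR56) and 79 were class II receptors. For comparison, 157 protein-coding OR genes of other chromosomes and 20 OR pseudogenes of chromosome 11 were counted in the same files.

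OR genes encode G protein-coupled receptors that bind odorants in the cilia of olfactory sensory neurons. Each such neuron transcribes a single OR allele and keeps the others in silenced chromatin, and outside the nose most OR genes are not transcribed. The genes lie in clusters of near copies, many with a coding sequence in a single exon, and chromosome 11 carries the largest human clusters, with class I receptors grouped around the beta-globin genes. They are often taken as a background of silent genes, and the question here was what level of counts such genes gave in both assays, and which of them stood above it.

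K562, an established erythroid line from a chronic myelogenous leukemia, was left untreated and sampled as 4 total RNA-seq libraries depleted of rRNA and 2 PRO-seq libraries. PRO-seq maps engaged RNA polymerases and so reads out nascent transcription, while RNA-seq reads out RNA at steady state. Both sets came from cells of the same flask, so every error below measures the spread between libraries of 1 culture of 1 line. Counts on TUs ranged from 5732780 to 9002746 in RNA-seq and were 6993816 and 7245632 in PRO-seq.

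All 10 erythroid markers fixed for K562 (among them GATA1, TAL1 and TFRC) were above 1 TPM in RNA-seq (TPM being counts per base of length, scaled to the same total in each library). Of 8 markers of olfactory sensory neurons, 7 had a counted TU, 3 of these (GNG13, RTP1 and RTP2) had no RNA-seq count, and only the adenylate cyclase gene ADCY3 was above 1 TPM, at 13.2 TPM. Of a wider list of 21 olfactory neuron genes, 20 were matched and 5 were above 1 TPM in RNA-seq (KDM1A, LDB1, ATF5, ADCY3 and RIC8B), all of which are also used in other cell types. In PRO-seq, 3 of the 7 matched markers were above 1 TPM, ADCY3 at 33.6 TPM, the cyclic nucleotide-gated channel gene CNGA4 at 4.0 TPM and the G protein gene GNAL at 1.08 TPM, as were 8 of the 20 genes of the wider list. The receptor transporters RTP1 and RTP2, which bring ORs to the cell surface, had 0 and 1 PRO-seq counts over both libraries.

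Most PRO-seq counts of the 118 genes fell on 4 genes, OR8G1, OR8G5, OR8A1 and OR10D3. The 250 bases before their start in RefSeq (assembly GRCh38.p14, chromosome 11, plus strand) are shown because these genes carried most of the nascent signal of the set. They are from chr11:124240845-124241094 for OR8G1, chr11:124256126-124256375 for OR8G5, chr11:124569747-124569996 for OR8A1 and chr11:124183095-124183344 for OR10D3. Capitals mark a TATA box (TATAAA), a homeodomain motif (TAATTA) or an Olf/EBF core (CCCNNGGG), each searched on both strands.
OR8G1: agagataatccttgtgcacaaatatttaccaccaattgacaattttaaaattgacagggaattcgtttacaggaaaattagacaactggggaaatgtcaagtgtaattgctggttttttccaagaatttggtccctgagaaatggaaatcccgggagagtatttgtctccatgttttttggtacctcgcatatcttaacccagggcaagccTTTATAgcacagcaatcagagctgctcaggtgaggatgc
OR8G5: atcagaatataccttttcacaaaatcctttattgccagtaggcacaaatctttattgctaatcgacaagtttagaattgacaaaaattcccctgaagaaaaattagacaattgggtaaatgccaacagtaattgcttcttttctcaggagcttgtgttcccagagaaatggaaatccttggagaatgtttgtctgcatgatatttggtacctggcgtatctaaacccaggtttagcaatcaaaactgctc
OR8A1: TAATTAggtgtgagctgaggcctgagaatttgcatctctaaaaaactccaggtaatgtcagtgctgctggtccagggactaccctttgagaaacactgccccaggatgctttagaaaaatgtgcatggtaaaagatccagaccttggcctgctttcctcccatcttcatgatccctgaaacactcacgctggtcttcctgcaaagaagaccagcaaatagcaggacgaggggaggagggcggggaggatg
OR10D3: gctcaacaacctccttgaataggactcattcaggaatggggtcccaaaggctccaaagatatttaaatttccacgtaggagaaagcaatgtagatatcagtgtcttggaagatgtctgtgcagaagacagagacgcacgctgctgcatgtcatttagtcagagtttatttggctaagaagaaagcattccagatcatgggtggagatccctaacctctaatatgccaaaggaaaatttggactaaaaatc
The window of OR8G1 held a TATA box, read on the strand opposite to the gene, and that of OR8A1 a homeodomain motif at its far end, while neither OR8G5 nor OR10D3 held any of the 3. The RefSeq start was that of the counted transcript for OR8G1, OR8G5 and OR10D3 but not for OR8A1.

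In all, 98 of the 118 genes had a RefSeq window of this kind, and for 90 of them the RefSeq start was the first base of the counted transcript. Their windows were poor in G and C, with a median of 39.2% (range 24.8% to 57.6%) against 58.0% over 35114 RefSeq promoters. The median window held 1 CpG against 11 over all promoters, and 96 of 98 (98.0%) held fewer than 5, as did 34.3% of all. The 4 genes with most PRO-seq counts were not set apart by this, with 2 or 3 CpGs each. A TATA box was in 29 of the 98 windows (29.6%) against 10.7% of all promoters, and a homeodomain motif in 22 (22.4%) against 4.35%. The Olf/EBF core was in 9 (9.18%) against 17.0%. These are matches of letters only. By composition, A- and T-rich windows hold the first 2 motifs more often and the Olf/EBF core, made of G and C, less often.

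In RNA-seq, 62 of 118 genes (52.5%) had 1 count or more in the 4 libraries together, compared with 85.4% of 18757 other mRNAs and 45.2% of 157 OR genes elsewhere. For PRO-seq, 25 genes had a span of 1000 bp or less and so no length left once the ends were removed, and 34 of the other 93 (36.6%) had at least 1 count, compared with 88.7% of 18730 other mRNAs and 47.5% of 141 other OR genes. Most of these counts were few. In RNA-seq 28 genes had a single count, 24 had 2 to 9 and 10 had 10 or more, and in PRO-seq the same classes held 13, 14 and 7 genes. Only 10 genes were counted in all 4 RNA-seq libraries and 17 in both PRO-seq libraries. Of the 93 genes, 26 were counted in both assays, 28 in RNA-seq only, 8 in PRO-seq only and 31 in neither. A count of 0 still allows up to 3 counts. At the median length of these genes, 3 counts were 0.127 TPM in RNA-seq and 1.25 TPM in PRO-seq. A gene of that length listed at 0 may thus have had a level up to these. In shorter genes this limit is higher. OR52B6 and OR52D1, counted in RNA-seq only, had PRO-seq lengths of 8 and 65 bp, where a 0 says little. The 93 also include 8 genes covered on their own strand (below), where a PRO-seq count of 0 is no measure. The classes without PRO-seq counts therefore do not show absent nascent transcription.

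**Figure D1:**
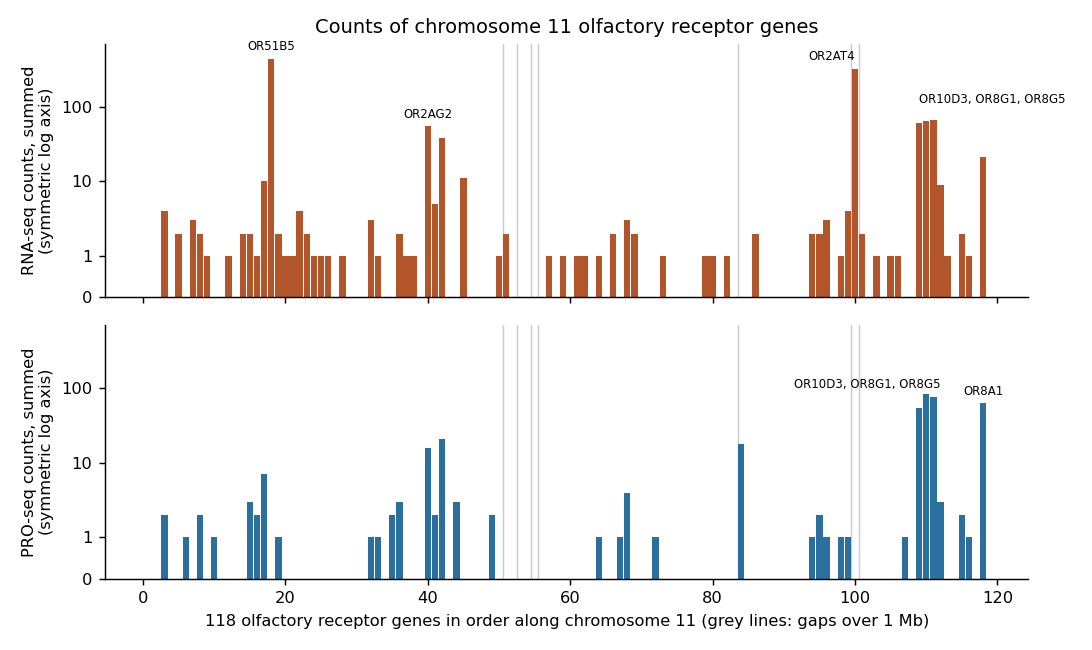
Counts of each of the 118 genes, summed over the 4 RNA-seq libraries (top) and the 2 PRO-seq libraries (bottom) on a symmetric log axis, in their order along chromosome 11, with grey lines at gaps over 1 Mb. OR51B5 and OR2AT4 stand out in RNA-seq only, and OR10D3, OR8G1, OR8G5 and OR8A1 in both assays.

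Split at gaps over 1 Mb, the genes lay in 8 stretches of chromosome 11 (GRCh37 positions). The first, from 4.39 to 7.96 Mb, held 50 genes, all 39 class I genes among them, with 602 RNA-seq counts. The stretch from 55.1 to 56.5 Mb held 28 class II genes with 16 RNA-seq counts in all, and that from 57.8 to 59.3 Mb held 16 genes with 14. The last, from 123.6 to 124.5 Mb, held 18 genes with 231 RNA-seq counts. PRO-seq density over genes not wholly covered by another counted TU on their own strand was 0.343 counts per kb in the first stretch, 0.105 and 0.104 in the 2 stretches between 55 and 60 Mb, and 3.54 in the last. Among these stretches the last thus had the most PRO-seq counts per length. Of its 286 PRO-seq counts, 279 were on the 4 genes whose promoters are shown above. The remaining stretches could not be compared, with 0.092 and 0.071 kb of such length in 2 of them and none in the others, that of OR2AT4 included.

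Summed over the 118 genes, the RNA-seq libraries gave 307, 386, 218 and 278 counts, and the PRO-seq libraries 188 and 199. Scaled to library size as counts per 1000000 (CPM), this was 41.3 ± 3.34 CPM (SD, n = 4) in RNA-seq and 28.0 ± 0.421 (SD, n = 2) in PRO-seq. The lowest RNA-seq library was at 37.5 CPM (exact 95% Poisson interval 33.4 to 42.0). The highest PRO-seq library was at 28.3 (24.5 to 32.5), so that the assays did not overlap in CPM. An exact two-sided permutation test gave p = 0.133, the smallest that 4 against 2 libraries allow. The order rested on genes lying within other TUs. Without the 8 genes wholly covered by another counted TU on their own strand, RNA-seq fell to 14.8 ± 1.69 CPM (n = 4). PRO-seq stayed at 28.0, and the exact permutation p was again 0.133. CPM is not scaled to length, and RNA-seq was counted on exons but PRO-seq over spans. Per kb, the 118 genes had 4.01 RNA-seq counts against 432 over other mRNAs. In PRO-seq the 93 genes had 0.474 per kb against 9.95. The CPM order therefore does not mean more RNA than nascent transcription.

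A few genes held most of the counts. OR51B5 and OR2AT4 had 766 of the 1189 RNA-seq counts (64.4%), and the other 116 genes shared 423. OR8G1, OR8G5, OR8A1 and OR10D3 had 279 of the 387 PRO-seq counts (72.1%). Without these 4 genes and the 8 covered ones, 106 genes gave 7.22 ± 0.832 CPM in RNA-seq (n = 4) and 7.78 ± 1.64 in PRO-seq (n = 2). These intervals cover counting error or the spread between libraries only. The sources used here do not say whether reads carried molecular identifiers, so reads may not be independent.

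**Figure D2:**
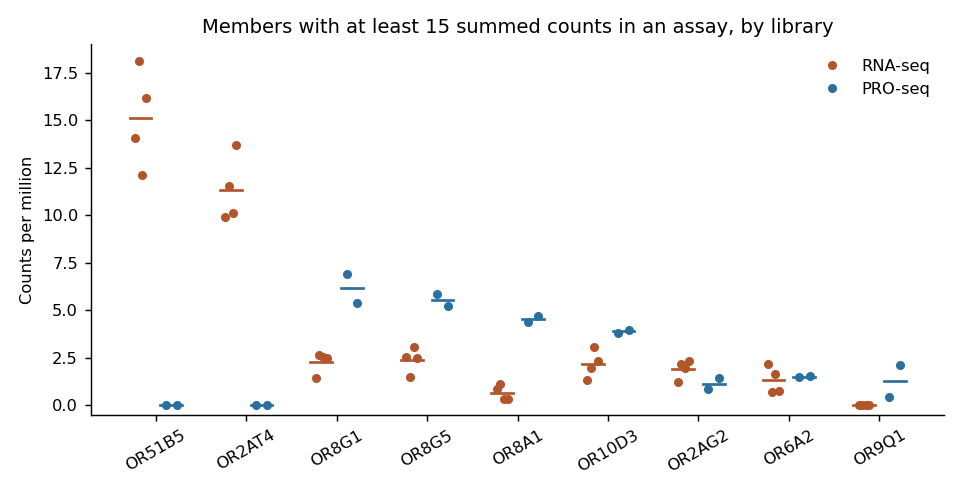
CPM in each library (points) with the mean (line) for the 9 genes with at least 15 summed counts in an assay. OR51B5 and OR2AT4 have RNA-seq counts in all 4 libraries and no PRO-seq count, and OR8G1, OR8G5, OR8A1 and OR10D3 are higher in every PRO-seq library than in any RNA-seq library.

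OR51B5 is a class I receptor next to the beta-globin genes and had the highest RNA-seq level of all 118 genes. Its counts were 115, 157, 67 and 103 in RNA-seq and 0 in both PRO-seq libraries, and its RNA-seq level was 24.1 TPM (19.0 to 28.4 over the libraries). All 4 RNA-seq libraries were above those of every other gene of the set on this scale. The counted transcript has 5 exons over 202170 bp (chr11:5324674-5526843, minus strand, GRCh37), so most of its span is intron. That span lay wholly within TUs of the same strand, those of the globin genes HBG2 and HBE1 and of ENSG00000239920, while 12.9% of its exonic bases were shared with them. HBG2 and HBE1, the fetal and embryonic globin genes that K562 transcribes strongly, had 59343 and 38755 RNA-seq counts, but 29 and 0 in PRO-seq. HBB, the adult gene, had 3 RNA-seq counts over 4 libraries.

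OR2AT4, a class II receptor alone in its stretch near 74.8 Mb, had the next most RNA-seq counts. It had 81, 100, 56 and 87 in RNA-seq and 0 in both PRO-seq libraries, or 2.72 TPM in RNA-seq (2.38 to 3.32 over the libraries). Its whole span (chr11:74792798-74807921, minus strand, GRCh37) lay within a noncoding TU of the same strand, ENSG00000284722, with which it shared 2.32% of its exonic bases. That noncoding TU had 235 and 248 PRO-seq counts but 1, 12, 2 and 10 in RNA-seq. OR2AT4 takes up only part of the span of that TU, and in which part of it the PRO-seq counts lay is not given by counts per TU.

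In all, 8 of the 93 genes with a PRO-seq length lay wholly within another counted TU on the same strand, and all had 0 PRO-seq counts. Besides OR51B5 and OR2AT4 these were OR52H1 with 2 RNA-seq counts, OR52N1 with 1, and OR52K2, OR52N5, OR5P3 and OR5M3 with none. The same held over all TUs with a gene body of at least 1000 bp. Of 1718 TUs wholly covered on the same strand, 1662 (96.7%) had no PRO-seq count, compared with 973 of 3380 (28.8%) covered on the opposite strand only and 15.4% of 17106 TUs not covered. For exons in RNA-seq the shares were 92.8% of 334 TUs, 39.5% of 162 and 34.5% of 27039. A PRO-seq count of 0 in a TU covered on its own strand is therefore no measure of its transcription in these files. Of 12 members covered on the opposite strand only, 3 had PRO-seq counts, and of 71 not covered on either strand 29 had them.

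**Figure D3:**
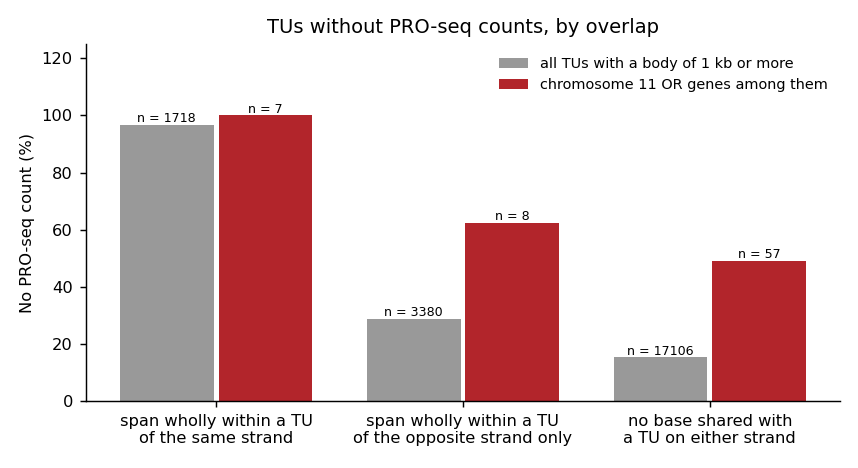
Share of TUs with no PRO-seq count, for all TUs with a gene body of at least 1000 bp (grey) and the chromosome 11 OR genes among them (red), by whether the span lies within another counted TU; n is the number of TUs. All 7 OR genes covered on the same strand are at 0, and 49.1% of the 57 that share no base with a TU on either strand.

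OR8G1, OR8G5, OR8A1 and OR10D3 are class II receptors on the plus strand of the last stretch. OR10D3 (chr11:124054052-124059487, GRCh37) had 26 and 28 PRO-seq counts and 11, 17, 17 and 15 RNA-seq counts. OR8G1 (chr11:124111835-124124260) had 47 and 38 in PRO-seq and 12, 23, 14 and 16 in RNA-seq. OR8G5 (chr11:124126272-124136120) had 40 and 37 in PRO-seq and 21, 13, 17 and 16 in RNA-seq. All 3 genes were counted in every library. OR8A1 (chr11:124440619-124452838) had 30 and 33 PRO-seq counts, and its RNA-seq counts of 7, 10, 2 and 2 were lower in replicates 3 and 4.

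Per length, the PRO-seq levels were 23.3 TPM for OR10D3, 16.7 for OR8G5, 14.2 for OR8G1 and 10.8 for OR8A1. The libraries of OR8G5 (17.5 and 15.9 TPM) and OR8G1 (15.9 and 12.6 TPM) overlapped, while OR10D3 (22.7 and 23.9 TPM) was above and OR8A1 (10.3 and 11.2 TPM) below both. The RNA-seq levels came in another order, at 3.11 TPM for OR8G5, 2.60 for OR8A1, 1.23 for OR10D3 and 1.13 for OR8G1. OR8A1 was second in this order with the fewest RNA-seq counts of the 4, 21 in all. Its counted transcript had 588 bp of exon, against 1566 bp in OR8G5, 3561 in OR10D3 and 4193 in OR8G1. Neighbours in that order overlapped over the libraries, from 2.00 to 4.11 TPM for OR8G5, 1.12 to 4.10 for OR8A1, 0.786 to 1.81 for OR10D3 and 0.728 to 1.32 for OR8G1. These were the only 4 of the 118 genes over 1 TPM by RNA-seq as well as over 10 TPM by PRO-seq, levels that 8725 other mRNAs passed. How reads that match several OR copies were treated was not tested, so the split between OR8G1 and OR8G5, near each other and of 1 subfamily, is uncertain.

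Other genes of the last stretch were near 0. OR8D1, on the minus strand next to OR8G5, had 9 RNA-seq and 3 PRO-seq counts, OR8B3 had 2 and 2, and no other gene of the stretch had more than 2 in RNA-seq or 1 in PRO-seq. The nearest coding gene upstream on the plus strand that is no OR gene was VWA5A, which ends 35.6 kb before OR10D3, 93.4 kb before OR8G1, 108 kb before OR8G5 and 422 kb before OR8A1. VWA5A was at 6.0 TPM in PRO-seq, below all 4 receptors, and at 11.8 TPM in RNA-seq, above all 4. The pseudogene OR8G7P between OR10D3 and OR8G1 had 7, 8, 3 and 7 RNA-seq counts and 0 and 1 in PRO-seq. Its PRO-seq length was only 108 bp, so that this single count was 17.7 TPM, too little to set its level beside the 4 receptors. VWA5A and OR8G7P were picked after values had been seen.

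A second, weaker pair lay near 6.8 Mb on the minus strand. OR2AG2 (chr11:6786857-6793207, GRCh37) had 10, 19, 11 and 15 RNA-seq counts and 6 and 10 PRO-seq counts, or 0.948 TPM and 5.73 TPM. OR6A2 (chr11:6812967-6820920), known to respond to aldehydes, had 18, 6, 9 and 5 RNA-seq counts and 10 and 11 PRO-seq counts, or 0.644 TPM and 5.78 TPM. Both genes were counted in all 6 libraries, and their PRO-seq levels did not differ beyond the libraries. The noncoding TU ENSG00000283415 (chr11:6843173-6948109) lies upstream of both on the same strand. It had 227 and 241 PRO-seq counts, at 8.62 TPM above both genes, and was at 0.664 TPM in RNA-seq. Any link between them was not tested. OR2D2, in the same stretch but too short for PRO-seq, had 2, 5, 2 and 2 RNA-seq counts, or 0.864 TPM.

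OR9Q1 had PRO-seq counts of 3 and 15 and no RNA-seq count in any library. Its TU is long, 157736 bp (chr11:57791353-57949088, plus strand, GRCh37), so that these counts were only 0.220 TPM. OR52A1, a class I gene between the globin genes and OR52A5, had 4, 3, 3 and 0 RNA-seq counts and 3 and 4 PRO-seq counts, or 0.118 TPM and 1.93 TPM. Of the other genes by PRO-seq level, OR8B3 was at 1.54 TPM, OR8J2 at 1.46 TPM with all 4 counts in 1 library, and OR8H1 at 0.686 TPM from a single count.

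Within 200 kb of the stretch from HBB to HBE1 lay 9 OR genes, and 8 of them had 10 RNA-seq counts or fewer. Besides OR51B5 and OR52A1, OR52D1 had 4 RNA-seq counts (0.273 TPM), OR51M1 and OR52H1 had 2 each, and OR52A5, OR51Q1, OR51I2 and OR52B6 had 1 each. In PRO-seq OR52A5 had 2 counts, OR51M1 had 1 and the other 5 named here had none. A high RNA-seq count was thus seen in 1 of these 9 matched genes.

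Of 20 genes whose span overlapped another annotated gene on the same strand, 8 were those wholly covered by a counted TU. Among the rest, OR52K1 had 4 RNA-seq counts, OR51E2 had 2, OR51F2, OR51A7, OR56B1 and OR52B2 had 1 each, and OR51T1, OR52E8, OR5P2 and OR6Q1 had none. OR2D2 and OR9Q1, given above, complete the list. OR52K1 and OR51E2 had 2 PRO-seq counts each. Overlap of this kind thus went with counts at the level of the other silent members in most cases.

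The ratio of RNA-seq to PRO-seq per length, which the study uses as a relative measure of RNA half-life, could be tested for 11 of the 118 genes, those with at least 10 counts over the 6 libraries and a PRO-seq length. In edgeR's quasi-likelihood test over 21621 TUs, with Benjamini-Hochberg adjustment and a ratio of 0 set at the median mRNA, 2 of the 11 were above the median mRNA and 7 below, at an adjusted p under 0.05. Over all TUs tested, 33.2% were above and 43.8% below. The median log2 ratio was -1.38 over the 11 genes and -0.54 over all TUs. With the genes at 0 in 1 assay set to their bound it was -1.34.

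The 2 above were OR51B5 and OR2AT4. Against 3 PRO-seq counts over both libraries, their ratio was at least 1993-fold and at least 15.8-fold higher than that of the median mRNA, but both were covered on their own strand, where a PRO-seq count of 0 is no measure. Below it, OR10D3 had a log2 ratio of -2.99 ± 0.34 (SE, edgeR adjusted p = 1.65e-18) and OR8G1 one of -2.41 ± 0.28 (edgeR adjusted p = 1.21e-17). OR8G5 was at -1.17 ± 0.28 (edgeR adjusted p = 5.52e-05). These 3 genes had more nascent transcription for their RNA level than the median mRNA. OR6A2 was at -1.91 ± 0.48 (edgeR adjusted p = 0.000136), OR52A1 at -2.72 ± 0.88 (0.00318, edgeR) and OR2AG2 at -1.34 ± 0.50 (0.0104, edgeR). OR8A1, at -0.81 ± 0.40 (edgeR adjusted p = 0.0552), and OR8D1, at -1.38 ± 1.15 (0.263, edgeR), did not pass.

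OR9Q1 passed narrowly (edgeR adjusted p = 0.0418). Against 3 RNA-seq counts over the 4 libraries its ratio was at least 1.06-fold lower than that of the median mRNA, and the call was lost without any 1 RNA-seq library (adjusted p 0.0712 to 0.0912, edgeR), without PRO-seq replicate 2 (0.312) and in DESeq2 (0.443). Without PRO-seq replicate 2, OR52A1 and OR2AG2 were lost too (edgeR adjusted p = 0.0714 and 0.226), leaving 4 genes below. OR8A1 passed without RNA-seq replicate 2 (-1.22, edgeR adjusted p = 0.0181), among TUs over 1 TPM by RNA-seq and over 10 TPM by PRO-seq (-1.38, edgeR adjusted p = 0.000874) and without a length offset (-1.60, edgeR adjusted p = 5.62e-05). The calls for OR10D3, OR8G1, OR8G5 and OR6A2 held without each library in turn, but not without a length offset, where none of the 4 passed and OR10D3 and OR6A2 turned to ratios of 0.13 and 0.82.

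**Figure D4:**
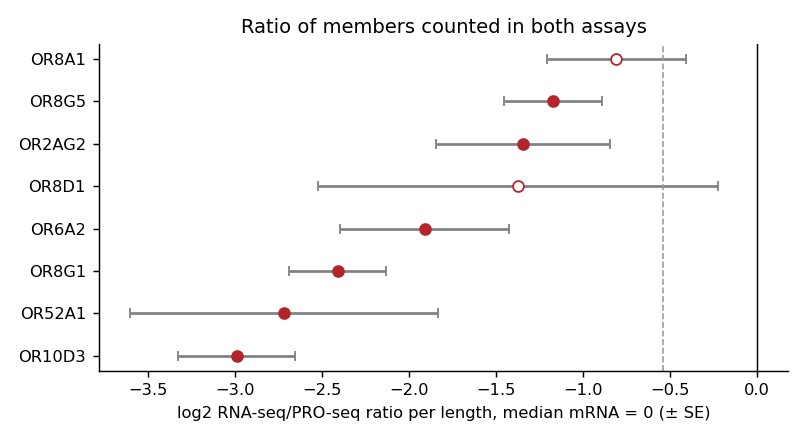
Log2 ratio of RNA-seq to PRO-seq per length (points, with the SE from edgeR) for the 8 genes tested that had counts in both assays, with 0 at the median mRNA and the dashed line at the median of all TUs tested. Filled points passed an adjusted p of 0.05, and all 8 ratios are below 0, from -2.99 for OR10D3 to -0.81 for OR8A1.

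As a background level, the median of the 118 genes was 0.0171 TPM in RNA-seq, and that of the 93 genes was 0 in PRO-seq. The 95th percentile was 0.975 TPM in RNA-seq. In PRO-seq it was 5.75 TPM, or 5.77 TPM over the 85 genes not wholly covered on their own strand. Of other mRNAs, 8209 of 18757 (43.8%) were at or under the RNA-seq level and 8816 of 18730 (47.1%) at or under that of the 85 genes. These levels were set by the few genes above. Without the 4 genes with most PRO-seq counts, the 95th percentile was 0.199 TPM in RNA-seq and 1.15 TPM in PRO-seq, values at which a gene of median length has only a few counts. OR genes of other chromosomes had a 95th percentile of 0.150 TPM in RNA-seq and 2.72 TPM in PRO-seq.

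**Figure D5:**
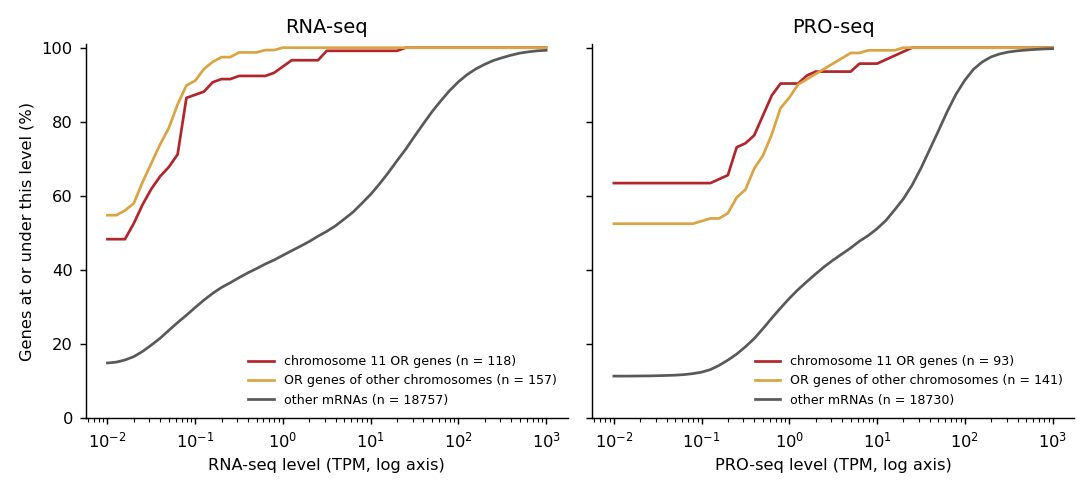
Share of genes at or under a given level (TPM, log axis) in RNA-seq (left) and PRO-seq (right) for chromosome 11 OR genes, OR genes of other chromosomes and other mRNAs. Both OR sets lie far to the left of other mRNAs, and the chromosome 11 genes reach higher RNA-seq levels than OR genes of other chromosomes through 6 genes above 1 TPM.

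Per length, genes not wholly covered on their own strand had 0.667 PRO-seq counts per kb, and without the 4 genes 0.197 (exact 95% Poisson interval 0.162 to 0.238), compared with 0.419 over OR genes of other chromosomes and 10.1 over other mRNAs. Summed counts of OR genes of other chromosomes were 6.59 ± 1.20 CPM in RNA-seq (n = 4) and 38.2 ± 4.46 in PRO-seq (n = 2). As sums over sets of unequal size, the 118 genes were thus above the other OR genes in RNA-seq and below them in PRO-seq. Per length, the PRO-seq order was the other way over genes not wholly covered (0.667 against 0.419), but not without the 4 genes (0.197). The RNA-seq sum without the 8 covered genes and these 4 was 7.22 CPM, near that of the other OR genes. These differences were not tested.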

How the data were processed

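Total RNA-seq (n = 4) and PRO-seq (n = 2) libraries of K562 cells were used. The authors deposited, for each library, raw counts per transcript of the annotation, on exons for RNA-seq and over the span without its ends for PRO-seq. Per the methods and labels, Cutadapt trimmed the reads, HISAT2 placed them on GRCh38 and HTSeq counted them. For tool versions, strand setting and counting mode the sources used here give nothing. No read was recounted, and rows that name no transcript were left out.

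Transcripts were matched by ID to GENCODE annotation lifted to GRCh37, which held 37339 of 42371 (88.1%), so lengths and coordinates are of that build and may differ from those counted on. Unmatched TUs held between 2.80% and 3.69% of the counts of a library. PRO-seq length was the span minus 1000 bp, 500 bp at each end. The 27 other mRNAs that leave no length under this rule still had 5687 PRO-seq counts, so the length counted on may be longer for short TUs. The 25 such OR genes had 1.

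TPM was computed from counts summed over libraries. RNA-seq was tested against PRO-seq with edgeR 4.0.16 (R 4.3.3; quasi-likelihood, TMM, length offsets, centred on the median mRNA, TUs with at least 10 counts), with DESeq2 1.42.0 as an alternative, and the fit was tested on simulated data. Sums were compared by exact permutation, and Python 3.11.15 with scipy 1.17.1 was used elsewhere. Promoter windows came from RefSeq. Genes were named if they passed an adjusted p of 0.05, were among the 10 with the highest TPM in an assay, lay within 200 kb of the beta-globin genes or overlapped an annotated gene on the same strand. The members and the gene lists were chosen with earlier results of these data known, and the removal of covered TUs was added after values were seen. Alternatives covered the count model, normalization, filters, length, replicate block and each library.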

Additional observations from a re-analysis of the deposited data

Results flagged for a closer look

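OR8G1 in RNA-seq was flagged because 1 of its 4 libraries stood apart. It had 1.47 counts per 1000000 in replicate 1 against 2.65, 2.54 and 2.51 in replicates 2 to 4, a gap of 0.884 of the whole range, which is above Dixon's 95% critical value for 4 samples. These are 12 counts against 23, 14 and 16. Of 13 values looked at in this way 1 was flagged, and chance flags about 1 in 20.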

How the results depend on the processing

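Of the counts and levels, most depended on which few genes were kept. Genes above the median mRNA fell from 2 to 0 with at least 1 summed count in each assay, with limits of 1 TPM by RNA-seq and 10 TPM by PRO-seq, and without covered TUs (added after seeing the data), since each of these leaves out OR51B5 and OR2AT4. Genes below went from 7 to 4 of 4 tested with those TPM limits and to 2 without a length offset, and ranged from 4 to 7 with each library left out. DESeq2 gave 2 above and 6 below. With a replicate block on replicates 1 and 2 there were 2 above and 5 below. Differences between replicates 1 and 2 did not go together in the assays (r = -0.02 over 15005 TUs). Counting error of single libraries enters these differences, so this cannot tell whether libraries of the same number shared a preparation.

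The summed RNA-seq mean of 41.3 CPM became 14.1 without genes overlapping an annotated gene on the same strand, 26.2 without OR51B5, 14.8 without covered genes and 33.7 without the 4 genes with most PRO-seq counts. The PRO-seq mean of 28.0 became 26.4, 21.8 (without OR8G1), 28.0 and 7.78, and 27.2 over all counts on TUs. The difference of 13.3 turned to -12.3 without overlapping genes and to -13.2 without covered genes. Genes detected fell from 62 to 19 and 10 in RNA-seq and from 34 to 13 and 7 in PRO-seq at 3 and 10 counts. The 95th percentile in RNA-seq went from 0.975 TPM to 0.689, 0.765 and 0.199 without overlapping genes, covered genes or the 4 genes. In PRO-seq it went from 5.75 TPM to 4.12 with 500 bp removed and 1.15 without the 4 genes.

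Without a length offset, log2 ratios turned to 0.13 for OR10D3, 0.47 for OR52A1, 0.82 for OR6A2 and 1.46 for OR8D1. That of OR2AG2 turned to 1.74, past the threshold. That setting compares counts and not counts per length, and is still centred on the median mRNA. Each ratio then also holds the gene's exon length against its PRO-seq length, relative to the same lengths in the median mRNA. For OR10D3 the exon and PRO-seq lengths were 3561 and 4436 bp, while other mRNAs together had 64998 kb of exon and 1.2662e+06 kb of PRO-seq length. The precision is limited by depth, as most members had fewer than 3 counts.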

Other observations

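The 20 OR pseudogenes of chromosome 11 had RNA-seq counts in 6 and PRO-seq counts in 4. Per length they had 1.61 RNA-seq counts per kb of exon and 1.37 PRO-seq counts per kb, beside 1.52 and 0.667 in the coding genes not wholly covered on their own strand. Of their 33 RNA-seq counts, 25 were on OR8G7P, beside OR8G1. Their PRO-seq density rests on 20 counts over 14.6 kb, 4 in replicate 1 and 16 in replicate 2. Of the 4 pseudogenes with PRO-seq counts, 2 had a single count. By class, the 39 class I genes had RNA-seq counts in 25 (64.1%) and PRO-seq counts in 11 of 34, and the 79 class II genes in 37 (46.8%) and 23 of 59. PRO-seq density over genes not wholly covered on their own strand was 0.155 counts per kb in class I and 0.865 in class II, and the 4 genes with most PRO-seq counts are all class II. These differences were not tested.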
